A study of Sus scrofa with 4 samples.

Results

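The genes described here are regulators of mitochondrial and energy metabolism genes in the piglet liver, with the coactivator PPRC1 and the orphan nuclear receptor ESRRG at their head. The list held 8 genes: PPRC1, ESRRG, ESRRA, PPARA, TFAM, NRF1, HNF4A and CREB1. The array annotation named 12 probe sets for 5 of them. It does not list ESRRG, whose single probe set takes its name from a table in the study. ESRRA and NRF1 were left with no probe set and were not analysed here, so that 13 of the 23999 probe sets tested carry this account. The genes were chosen on the difference between the diets in these same arrays. Values for the 13 probe sets are therefore a description with no test.

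The liver samples came from male crossbred pigs of (German Landrace x Large White) x Pietrain breeding at 7 weeks of age. All received the same basal diet, low in carnitine of its own, for 21 days, and the carnitine group received it with 500 mg of added L-carnitine per kg. Livers were removed 2.5 h after the last meal. Each array carried RNA pooled from 4 pigs, and each diet had 2 pools, so that the values of single animals are averaged within a pool and only the spread between 2 pools of a diet measures the error.

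PPRC1 belongs to the PGC-1 family of coactivators, proteins that do not bind DNA themselves and are recruited by transcription factors such as NRF1, CREB1 and the estrogen-related receptors. NRF1 switches on nuclear genes of the respiratory chain as well as TFAM, the protein that packages mitochondrial DNA and starts its transcription. ESRRA and ESRRG, PPARA and HNF4A are nuclear receptors: the estrogen-related receptors act on genes of oxidative metabolism, PPARA on fatty acid oxidation in the fasted liver, and HNF4A on the hepatocyte programme, while CREB1 carries the glucagon and cAMP signal to genes of gluconeogenesis.

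Signals are MAS5 units on a linear scale, and differences are on the log2 scale, carnitine minus control, with the standard error (SE) from limma. That SE is moderated: it draws on the spread between pools over all probe sets as well as on the probe set's own. It can therefore be larger or smaller than the probe set's own pools alone would give. A probe set is called dim where its mean log2 signal lies below the median of all non-control probe sets, which corresponds to a signal of 111. By that measure 6 of the 13 probe sets were above the median and 7 were dim. Of the hepatocyte markers, 8 of 9 were measured and all 8 lay above the median signal, whereas 0 of 4 measured skeletal muscle markers did. The summed hepatocyte marker signal was 272829 and 249636 with carnitine, below the 300269 and 276049 of the controls. Of the 8 markers, 7 lay below 0 and 1 above, CPS1 at a log2 difference of 0.29 (SE 0.19). The pools did not overlap for 1 higher and 4 lower of them, against 21.5% and 21.0% of all named genes. Summed markers of Kupffer cells and macrophages (6 of 9 measured) were also lower with carnitine, at 3952 and 3402 against 4761 and 4376. By gene, 4 of these 6 lay below 0 and 2 above, among them CD14 at a log2 difference of 0.52 (SE 0.30). The erythroid sum (2 of 5 markers measured) was lower as well, at 668 and 539 against 922 and 1219. It rested on ALAS2 (log2 difference -1.39, SE 0.30), as the pools overlapped for HBB (0.073, SE 0.25). The sums of the other cell types listed overlapped between the diets. In whole liver RNA, fewer cells of a type and less RNA per cell cannot be told apart. The ratio of 3' to 5' signal of the GAPDH control, a measure of RNA integrity, stood at 18.7 and 16.1 for the carnitine pools compared with 12.5 and 11.6 for the controls. The same ratio for the actin control was 157 and 136 for the carnitine pools against 91.2 and 86.7 for the controls. The marker sums and both ratios moved with the diet, and their part in the differences below was not tested.

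**Figure D1:**
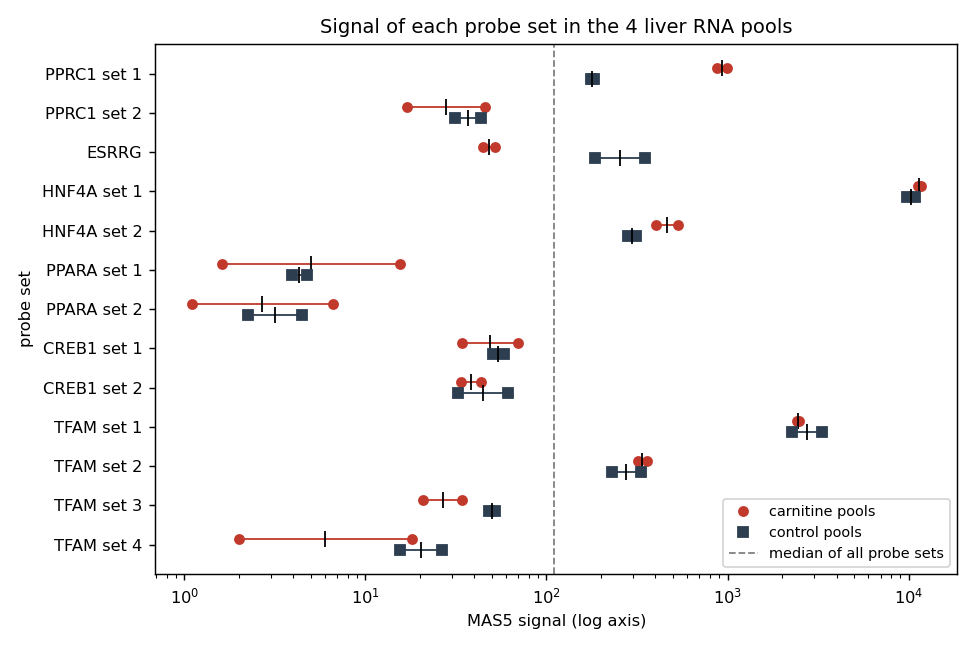
MAS5 signal (log axis) of the 13 probe sets in the 4 liver RNA pools, drawn as circles (carnitine) and squares (control), each diet's pair connected by a line with its geometric mean as a black tick. Sets of a gene are numbered from the brightest, the dashed line marks the median signal of 111, and the first set of PPRC1 and the set of ESRRG show the clearest gaps between the diets among the sets drawn.

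The signal of PPRC1, the PGC-1-related coactivator, was about 5 times as high in the carnitine pools as in the control pools in its brighter probe set. That probe set gave 990 and 879 with carnitine against 184 and 175 without it. The pools of each diet lay close together, within 1.13-fold for carnitine and 1.05-fold for control, and the groups did not overlap. The means were 934 ± 78.7 (SD, n = 2 pools) and 179 ± 5.71 (SD, n = 2 pools), and the log2 difference was 2.38 (SE 0.23), a 5.20-fold higher signal. The smallest ratio between a carnitine and a control pool was 4.79 and the largest 5.64. Of all 23999 probe sets, 232 had a log2 difference at least as high, and 8 of these lay above the median signal, both counts with this one included.

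The other probe set of PPRC1 was derived from a different source sequence and was dim. It gave 17 and 45.8 with carnitine and 43.7 and 31.1 without it. These values overlapped, and the log2 difference of -0.40 (SE 0.70) was smaller than its error. Without carnitine pool 1 that difference was 0.31, so that its sign depended on a single pool, whereas the brighter probe set stayed between 2.29 and 2.46 when any pool was left out. The higher PPRC1 signal therefore rests on 1 of its 2 probe sets.

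ESRRG, an orphan nuclear receptor of the estrogen-related receptor family, had the opposite pattern, with a signal about 5 times lower in the carnitine pools. Its probe set gave 44.8 and 51.7 with carnitine against 352 and 185 without it. The groups did not overlap, and the control pools differed from each other by 1.91-fold, more than the carnitine pools at 1.16-fold. The means were 48.2 ± 4.92 (SD, n = 2 pools) and 269 ± 119 (SD, n = 2 pools), and the log2 difference was -2.41 (SE 0.44), a 5.30-fold lower signal. The ratio between a control and a carnitine pool ran from 3.57 to 7.87. Without control pool 1, the pool with the higher signal, the log2 difference was -1.94, and without control pool 2 it was -2.87.

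The ESRRG probe set lay at the boundary between dim and bright signals. Its mean log2 signal exceeded the median of all probe sets by 0.0022, with both control pools above the median and both carnitine pools below it. Of all 23999 probe sets, 213 had a log2 difference at least as low, this one included. When 64 units were added to every signal before taking logs, which shrinks differences between dim signals, ESRRG had a log2 difference of -1.52 and PPRC1 one of 2.03. The sign was the same for both.

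**Figure D2:**
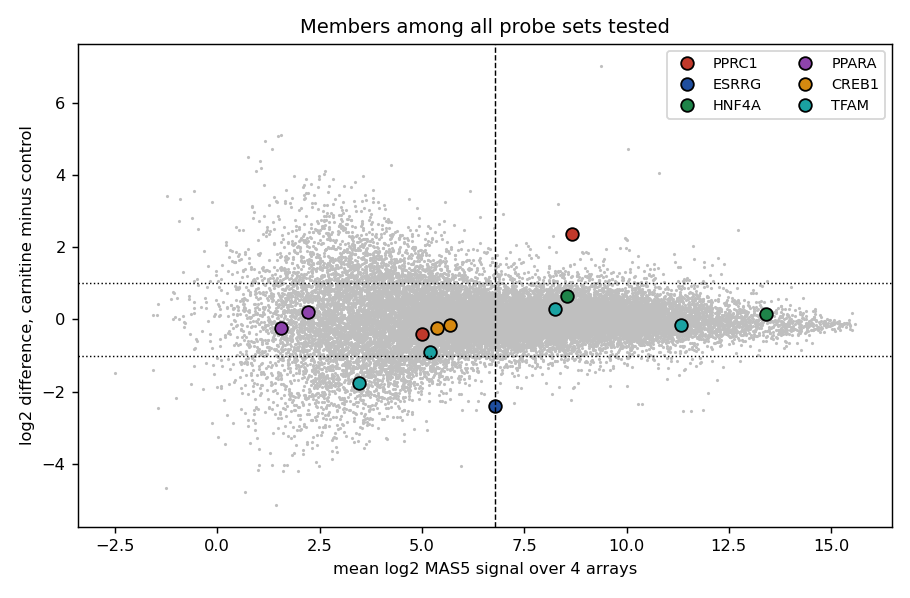
Log2 difference between the diets against mean log2 signal for all 23999 probe sets tested (grey) and the 13 probe sets of the regulators (coloured), with dotted lines at a 2-fold difference and a dashed line at the median signal. The brighter set of PPRC1 (2.38) stands above the cloud, ESRRG (-2.41) lies below it at the dashed line, and the dim sets lie where grey points scatter most.

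HNF4A, the nuclear receptor that maintains hepatocyte identity, was slightly higher in the carnitine pools in both of its probe sets. The brighter gave 11694 and 11225 against 9821 and 10798, a log2 difference of 0.15 (SE 0.18), and it was brighter than 98.7% of all probe sets. The second, from a different source sequence, gave 403 and 532 against 283 and 310, a log2 difference of 0.64 (SE 0.26) or 1.56-fold. All 4 pairwise comparisons lay in the same direction in each probe set. The difference of the brighter set was smaller than its SE, and that of the second ran from 0.44 to 0.85 when single pools were left out.

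PPARA, the fasting receptor of fatty acid oxidation, gave signals near the bottom of the range. Its 2 probe sets come from the same source sequence and had signals between 1.1 and 15.6, among the dimmest 5.57% of all probe sets. One gave 1.61 and 15.6 in the carnitine pools against 4.75 and 3.92, and the other gave 6.66 and 1.1 against 4.46 and 2.25. The carnitine pools disagreed by 9.70-fold and 6.07-fold, in opposite order in the 2 probe sets. The log2 differences of 0.22 (SE 1.30) and -0.23 (SE 1.28) were each far smaller than their errors.

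CREB1, the cAMP-responsive factor, also gave dim signals in both of its probe sets. The first gave 34.0 and 69.6 with carnitine against 58.0 and 51.0 without it, a log2 difference of -0.16 (SE 0.56). The second, from another source sequence, gave 43.4 and 33.9 against 32.7 and 61.5, a log2 difference of -0.22 (SE 0.59). The pools of the diets overlapped in both, and both differences were smaller than their errors.

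TFAM, the packaging and transcription factor of mitochondrial DNA, had 4 probe sets from 3 source sequences, of which the brighter pair showed little difference. The brightest gave 2466 and 2414 with carnitine against 3311 and 2256 without it, a log2 difference of -0.16 (SE 0.23). The next gave 320 and 358 against 331 and 229, a log2 difference of 0.30 (SE 0.29). The pools overlapped in each, and the 2 sets differed in sign.

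The dim TFAM sets lay lower in the carnitine pools. The brighter of them gave 20.9 and 34.3 against 48.2 and 51.8, groups that did not overlap, with a log2 difference of -0.90 (SE 0.58). The other, made from the same source sequence, gave 18.1 and 2.0 against 15.5 and 26.6 and had a log2 difference of -1.75 (SE 1.17). Its lowest carnitine value set that size, since the difference was -0.16 without carnitine pool 2 and -0.034 with dim signals lifted to a floor, the 25th percentile of their array.

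**Figure D3:**
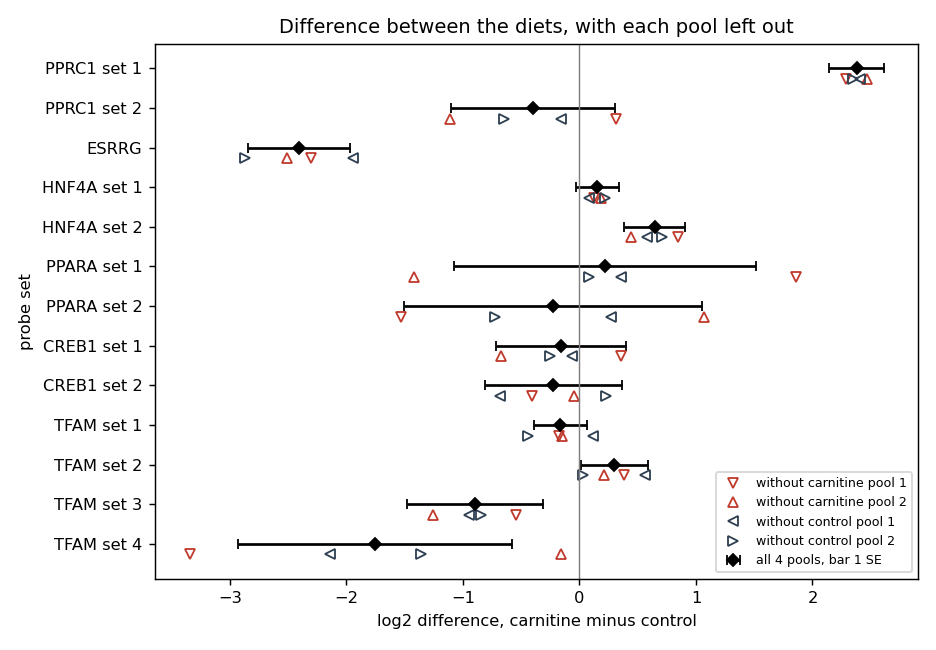
Log2 difference between the diets for each of the 13 probe sets (diamonds, bar 1 SE from limma), with open triangles below each for the value when a carnitine pool (red) or a control pool (dark) is left out. The triangles of PPRC1 set 1 lie between 2.29 and 2.46 and those of ESRRG between -2.87 and -1.94, while those of PPARA, CREB1 and the second PPRC1 set lie on both sides of 0.

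Across the 13 probe sets, 1 was higher and 2 were lower by 2-fold or more in the carnitine pools, where 8.03% and 7.92% of all probe sets were. Of the 6 above the median signal, 1 was higher and 1 lower by 2-fold, against 2.13% and 1.53% of all probe sets above the median. The pools of the diets did not overlap for 3 higher and 2 lower probe sets, against a background of 19.2% higher and 20.4% lower, and for 3 higher and 1 lower of the 6 bright ones, against 21.9% and 22.0%. Since the list was drawn up with this contrast in view, nothing is read from these counts. When each pool was left out in turn, 7 probe sets had the same sign in all 4 fits and 6 did not.

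The genes that work with these regulators or are known targets of them were examined next, from 10 lists that leave out the 8 genes themselves. These lists were also drawn up with earlier results of these data known. Their counts and p-values are therefore a description and not independent support. Of 217 listed genes, 125 had an annotated probe set, and the brightest set of each gene was used. In limma with Benjamini-Hochberg adjustment over all probe sets, 0 of the 125 passed an adjusted p of 0.05, as for 0% of the 6765 named genes in either direction. At an unadjusted p under 0.05, 6 were higher (SIK2, DUSP1, MTTP, CYCS, ANGPTL4 and PLIN2) and 6 lower (PCK1, TAT, PDK4, TXNIP, MEF2D and MEF2A), beside 6.56% of all named genes higher and 3.99% lower. The study names a one-factor analysis of variance among its statistics, while it called array probe sets by a 2-fold change. Run on these arrays, that analysis of variance left 0 of the 125 after adjustment, with 1 higher and 4 lower before it. The median log2 difference of the 125 genes was -0.029, and that of all named genes was -0.0089.

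**Figure D4:**
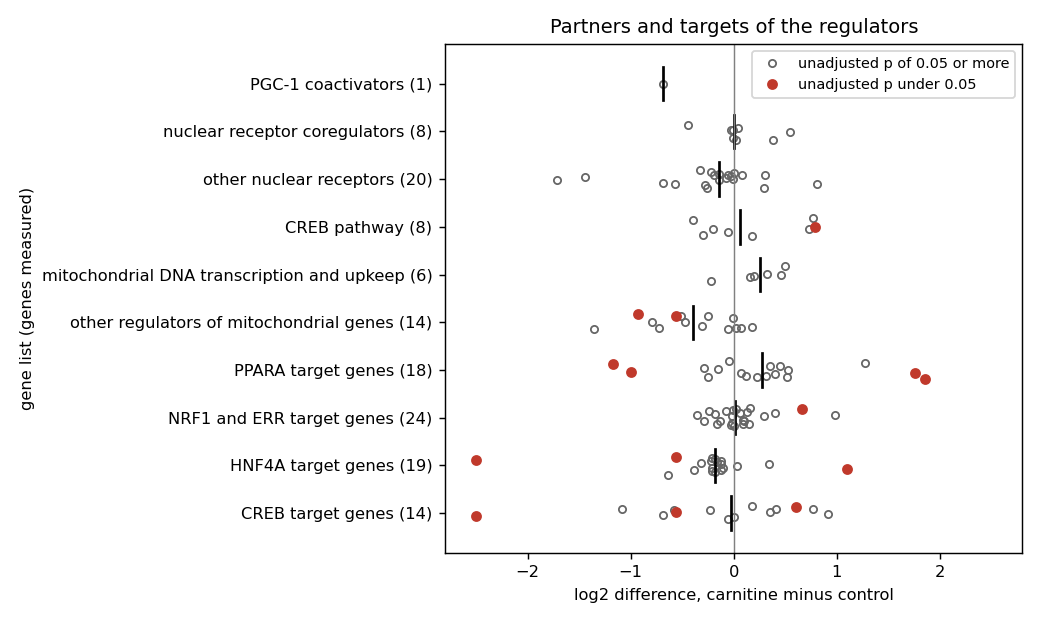
Log2 difference between the diets for the measured genes of 10 lists of partners and targets (brightest probe set of each gene, number measured in brackets), with filled red points for an unadjusted limma p under 0.05, open points for the rest and a black bar at the median of the list. Points at -2.50 in the lists of HNF4A and CREB targets are the same gene, PCK1, and the bar of the other regulators of mitochondrial genes lies at -0.39.

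Among the coactivators, PPARGC1A, the PGC-1α protein that drives gluconeogenesis and mitochondrial genes in fasting, was the only other PGC-1 family member measured. It gave 207 and 157 with carnitine against 315 and 267 without it. The groups did not overlap, on the side opposite to the brighter PPRC1 probe set, and the log2 difference was -0.69 (SE 0.30, adjusted p = 0.586 from limma). Of 8 measured nuclear receptor coregulators, 4 were above and 4 below 0, with a median of 0.0056, while after median centring 7 were above and 1 below. NCOA2, a steroid receptor coactivator, had the smallest p of that list at a log2 difference of -0.44 (SE 0.21, adjusted p = 0.618 from limma), while its dim sets had 0.37 (SE 0.80) and 0.61 (SE 0.67). MYBBP1A, a repressor that binds PGC-1α, had 0.54 (SE 0.32), the corepressor NCOR1 0.037 (SE 0.22; dim sets -0.66 and 0.15) and the mediator subunit MED1, a dim probe set, 0.38 (SE 1.04).

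Other nuclear receptors lay mostly below 0, with 15 of 20 lower and 5 higher and a median of -0.15. The median was -0.27 without carnitine pool 1, -0.086 without control pool 2, -0.075 with an offset of 64 and -0.069 with the floor. The pools did not overlap for 2 higher and 6 lower of the 20, against 21.5% and 21.0% of all named genes. RORA, a receptor of the circadian and lipid programmes, gave 162 and 196 against 329 and 250 (log2 difference -0.69, SE 0.30, adjusted p = 0.587 from limma). ESR1 and RARA, the receptors for estrogen and retinoic acid, were dim and had log2 differences of -1.71 (SE 0.93) and -1.44 (SE 0.81). NR2F6, an orphan receptor with a bright signal, had 0.29 (SE 0.19).

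Of 14 other regulators of mitochondrial genes, 11 were below 0 and 3 above, with a median of -0.39, and the pools did not overlap for 0 higher and 7 lower, against 21.5% and 21.0% of all named genes. With the mean over all probe sets of a gene in place of the brightest, the median was -0.14. MEF2D, a transcription factor of the MEF2 family that controls PGC-1α in muscle, gave 421 and 316 against 671 and 717 (log2 difference -0.93, SE 0.24, adjusted p = 0.399 from limma). Its relative MEF2A gave 1960.3 and 1747 against 3127 and 2389 (log2 difference -0.56, SE 0.21), and a second probe set of MEF2A had -0.69 (SE 0.30). FOXO1, the insulin-restrained factor of gluconeogenesis, gave 737 and 626 against 866 and 1027 (log2 difference -0.47, SE 0.22), with -1.49 (SE 0.98) in a dim probe set. PRKAB2, a β subunit of the energy sensor AMPK, gave 136 and 95.6 against 182 and 195 (log2 difference -0.72, SE 0.35). Each of the 4 lay lower in both carnitine pools, and 0 of the 14 passed the adjusted p. At an unadjusted p under 0.05 in limma, 0 were higher and 2 lower, beside 6.56% and 3.99% of all named genes. The analysis of variance gave the same counts for the 14, beside 282 higher and 226 lower of the 6765 named genes.

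For the cAMP pathway around CREB1, 4 of 8 measured genes lay above 0 and 4 below. SIK2, a kinase that keeps the CREB coactivators out of the nucleus, gave 1006 and 1349 against 727 and 627 (log2 difference 0.79, SE 0.23, adjusted p = 0.435 from limma). Its dim probe sets had log2 differences of 0.72 (SE 0.75) and 0.78 (SE 0.60), and its other set above the median signal had -0.51 (SE 0.40). The sets thus disagreed in sign, also among those above the median. PRKACA, a catalytic subunit of protein kinase A, had -0.39 (SE 0.25), and PDE4B, a cAMP phosphodiesterase with a dim signal, had 0.77 (SE 0.75). CREM, a relative of CREB1, had 0.18 (SE 0.18) in its brightest set and 0.24 (SE 0.37, a dim set), 0.26 (SE 0.33) and 0.87 (SE 0.34) in the others. The last of these gave 461 and 633 against 393 and 222, values that did not overlap.

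The machinery that transcribes and maintains mitochondrial DNA, on which TFAM acts, was measured for 6 of 18 genes, of which 5 lay above 0 and 1 below (median 0.26). TFB1M, an rRNA methyltransferase of mitochondria, gave 316 and 393 against 273 and 241 (log2 difference 0.46, SE 0.27, adjusted p = 0.689 from limma). LONP1, the matrix protease that degrades TFAM, had -0.23 (SE 0.20). MTERF3, a negative regulator of mitochondrial transcription, had 0.32 (SE 0.38) and 1.31 (SE 1.43) in a dim set, and TEFM, its elongation factor, 0.50 (SE 0.53) from a dim probe set. Without control pool 2 the median of the 6 genes was -0.13.

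Nuclear genes that NRF1 and the estrogen-related receptors act on, chiefly of the respiratory chain, were centred near 0 with all 4 pools. Of 24 measured genes 13 lay above and 11 below, with a median log2 difference of 0.0096, and 0 passed the adjusted p (1 higher and 0 lower at an unadjusted p in limma, 0 higher and 1 lower in the analysis of variance). Of all named genes 6.56% were higher and 3.99% lower at an unadjusted p in limma. In the analysis of variance 282 were higher and 226 lower of the 6765 named genes. The split of the 24 genes about 0 varied with the setting. Without carnitine pool 1, 18 lay above and 6 below (median 0.11). Without control pool 1, 8 lay above and 16 below (median -0.051). After median centring 17 lay above and 7 below (median 0.048). CYCS, cytochrome c, gave 1597 and 2078 with carnitine against 1262 and 1055 without it (log2 difference 0.66, SE 0.22, adjusted p = 0.472 from limma). ATP5F1A, a subunit of ATP synthase, had 0.40 (SE 0.25), the complex I subunit NDUFV1 -0.35 (SE 0.23) and the cytochrome oxidase subunit COX5B -0.29 (SE 0.19).

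Targets of PPARA had differences in both directions, 12 of 18 being above 0 and 6 below (median 0.27). ANGPTL4, a secreted inhibitor of lipoprotein lipase, gave 1892 and 2726 against 348 and 1300 (log2 difference 1.76, SE 0.55, adjusted p = 0.460 from limma). A second probe set of ANGPTL4 had 1.33 (SE 0.51). PLIN2, a coat protein of lipid droplets, gave 405 and 2121 against 196 and 336 (log2 difference 1.85, SE 0.70). PDK4, the kinase that shuts off pyruvate dehydrogenase in fasting, gave 3386 and 1744 against 4711 and 6327 (log2 difference -1.17, SE 0.33, adjusted p = 0.421 from limma), and its dimmer probe set had -0.52 (SE 0.33). TXNIP, an inhibitor of thioredoxin, gave 7114 and 6264 against 9059 and 19563 (log2 difference -1.0, SE 0.35). These 4 lay apart between the diets, 2 on each side. Over the whole list the pools did not overlap for 6 higher and 2 lower of the 18, against 21.5% and 21.0% of all named genes. The other 4 higher genes were CPT1A (0.52, SE 0.25) and SLC25A20 (0.52, SE 0.24), which carry fatty acids into mitochondria, the acyl-CoA synthetase ACSL1 (0.23, SE 0.21) and the pantetheinase VNN1 (1.27, SE 0.69), in log2 differences. The VNN1 probe set was dim, at 74.2 and 117 with carnitine against 20.2 and 73.4, so that its pools were barely apart. These other 4 genes are given to complete that count. Without carnitine pool 2 the list had a median of -0.042.

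Targets of HNF4A lay mostly a little below 0. Among them APOA1, TTR, TF and SERPINA1 were also hepatocyte markers, so that this list and the lower marker sum share probe sets. Of 19 measured genes 16 lay below 0 and 3 above, with a median of -0.18, and the pools did not overlap for 1 higher and 10 lower, against 21.5% and 21.0% of all named genes. After quantile normalization 12 of the 19 lay below 0 and the median was -0.072, and it was -0.10 without carnitine pool 2 and -0.12 without control pool 1. PCK1, the enzyme that commits oxaloacetate to gluconeogenesis and also a CREB target, gave 991 and 2490 with carnitine against 5177 and 15246 without it (log2 difference -2.50, SE 0.57, adjusted p = 0.359 from limma). TAT, tyrosine aminotransferase, is in both lists as well and gave 3272 and 3059 against 4527 and 4824 (log2 difference -0.56, SE 0.18), with -0.84 (SE 0.52) in its other probe set. MTTP, which loads lipid onto apolipoprotein B, was on the other side at 3721 and 4954 against 1322 and 3052 (log2 difference 1.1, SE 0.38), and AGT, angiotensinogen, had -0.38 (SE 0.21).

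Of 14 measured CREB targets 7 lay above 0 and 7 below, with a median of -0.029 that turned to 0.043 without carnitine pool 1 and 0.065 without control pool 2. Beside PCK1, TAT and PPARGC1A, the gene with the smallest p was DUSP1, a phosphatase that switches off MAP kinases, at 2077 and 2157 with carnitine against 1438 and 1343 without it (log2 difference 0.61, SE 0.18, adjusted p = 0.446 from limma). Genes of the same pathway thus lay on both sides, with the gluconeogenic PCK1 and TAT lower in both carnitine pools and DUSP1 higher.

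The genes whose signals ran most like those of PPRC1 and ESRRG over the 4 arrays were taken by the root mean square distance of log2 signals, each centred on its own mean. For PPRC1 the nearest of 6050 bright, named probe sets were CA3, a carbonic anhydrase, at a distance of 0.21 (526 and 568 against 143 and 131), HSPH1, a chaperone of the stress response, at 0.22 (1979 and 2429 against 408 and 512), and ZFAND2A, a zinc finger protein induced by proteotoxic stress, at 0.29 (1409 and 1423 against 310.0 and 429). Their log2 differences were 2.0, 2.26 and 1.96. For ESRRG they were ACVR1, an activin and BMP receptor, at 0.45 (669 and 440 against 2227 and 1715), CCNG2, a cyclin, at 0.47 (188 and 182 against 761 and 967), and ACSS3, a mitochondrial acyl-CoA synthetase, at 0.55 (71.8 and 79.6 against 257 and 137). Their log2 differences were -1.85, -2.22 and -1.31. Over 4 arrays in 2 groups, a probe set with a like difference between the diets lies near by construction, so this is a description only.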

How the data were processed

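Liver RNA of 2 pools per diet, each of 4 pigs, was hybridized to Affymetrix porcine GeneChips with a single biotin label. The authors deposited linear MAS5 intensities, background-subtracted and scaled to a shared trimmed mean. GCOS 1.1.2, MAS5 5.0 and Affymetrix Expression Console 1.1 appear in the submitters' notes on processing. Detection calls were not used here, and the number of arrays (4) limits the precision, with 2 residual degrees of freedom. The labels call the pools biological replicates.

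Signals were log2-transformed with a pseudocount of 0. Of 24123 probe sets, 124 controls were left out and the remaining 23999 were tested in limma 3.58.1 (R 4.3.3, variance trend) with Benjamini-Hochberg adjustment and a threshold of 0.05. Fits were tested on simulated data. Among those probe sets 10069 had 1 gene symbol, 198 several and 13732 none, from an array annotation that can be old. Symbols of 4 ATP synthase genes were matched by their older names. Coordinates and sequences are not given, as the annotation states no build.

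The members and gene lists were chosen with earlier results of these data known. Named genes are all members, the up to 4 genes of smallest p per list, and the 3 probe sets most like PPRC1 and ESRRG. Alternatives were quantile normalization, median centring, an offset of 64, a floor at the 25th percentile, filters on dim signals, arithmetic means, other variance models, the methods' analysis of variance, a replicate block, the mean over a gene's probe sets, and leaving out each pool.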

Additional observations from a re-analysis of the deposited data

How the results depend on the processing

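The log2 differences of the brighter PPRC1 probe set and of ESRRG kept their signs under all 10 alternatives that could give them a value. With an offset of 64 they were 2.03 and -1.52. When single pools were left out they ranged from 2.29 to 2.46 and from -2.87 to -1.94, and the dim PPRC1 set from -1.11 to 0.31. A fit that leaves out a pool keeps 1 pool of that diet, which is assumed to vary like the other diet's.
Over all probe sets, 1 passed the adjusted p in limma (a set of the detoxification gene GSTA1, named after its value was seen), against 2 with the floor at the 25th percentile, 3 among those above the median signal, 0 without the variance trend and 0 in the analysis of variance. Leaving out single pools gave 0 to 8 (8 without control pool 1, 4 without control pool 2). The unadjusted counts of 1133 higher and 943 lower ranged from 358 to 1817 and from 626 to 1289, with the lowest of both without carnitine pool 2.
At an unadjusted p, 6 of the 125 list genes were higher and 6 lower. These counts were 0 higher and 2 lower without the variance trend, 1 higher in the analysis of variance, and 0 to 11 higher and 3 to 12 lower when single pools were left out, with 0 higher without carnitine pool 2 and 11 higher and 12 lower without control pool 2. The causes were not tested.
The labels number the pools and state no pairing. Deviations of same-numbered pools correlated at 0.0032 across probe sets above the median signal. That value shows no shared shift and cannot tell whether such pools were handled together. With the replicate block 106 probe sets passed the adjusted p, 3 of them list genes (PCK1, PLIN2 and ANGPTL4), and the log2 differences were the same by construction.
The log2 differences of the 7 dim sets had SEs from 0.56 to 1.30, and those of the 6 brighter ones from 0.18 to 0.44, so that smaller differences could not be resolved in the dim sets.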
